A study of Mus musculus with 13 samples.

Results

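The genes described here are the chemokines and chemokine receptors of mouse aorta. A feature, 1 value per gene and array, was taken when its symbol began with Ccl, Cxcl, Ccr or Cxcr and a number, with Xcl1 or Xcr1, or with Cx3c. Cxcl13, Ccl19, Ccl21a, Cxcr5 and Ccr7, ligands and receptors of organised lymphoid tissue, were set aside. This gave 50 of 21225 features: 32 ligands (18 CC, 12 CXC, 1 XC and 1 CX3C) and 18 receptors. Ackr3, a scavenging receptor that the deposited values list under its older name Cxcr7, is among the receptors.

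RNA came from aortas of male C57BL/6 mice on 13 arrays, to ask how expression in the vessel wall alters with age and whether the mineralocorticoid receptor (MR) of smooth muscle bears on it. The groups were 3 arrays of aged mice with the receptor gene deleted (aged MR-KO, 12 months), 4 of aged mice with an intact receptor (aged MR-intact, 12 months), 3 of young knockout mice (young MR-KO, 3 to 4 months) and 3 of young intact mice (young MR-intact, 3 to 4 months). The deletion is limited to smooth muscle cells according to the series' design text, so the other cells of the wall keep the receptor in the knockout. The sources used here do not name the Cre driver, nor say whether aortas were pooled or each array is a separate mouse. The p-values therefore reflect only how much these arrays vary, part of which may be technical.

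Chemokines are small secreted proteins that bind to matrix and endothelial surfaces and guide leukocytes along a gradient. They signal through receptors with a G protein partner on the leukocyte. CC ligands such as Ccl2 and Ccl7 mainly draw monocytes, eosinophils and T cells. CXC ligands include a neutrophil-attracting class, which acts on Cxcr2, and an interferon-induced class, Cxcl9, Cxcl10 and Cxcl11, which acts on Cxcr3 of activated T cells. In the arterial wall, endothelium, smooth muscle, fibroblasts and resident macrophages make the ligands, whereas most receptor transcripts come from leukocytes. In RNA from whole tissue, fewer cells of a type and less RNA per cell cannot be told apart.

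Array medians lay between 5.85 and 5.97 log2 units, and lower quartiles between 3.89 and 4.14. By group mean, 12 members lay below the lowest of those quartiles (3.89) in all 4 groups, 5 in 1 to 3 groups and 33 in none. The low set of 12 was Ccl1, Ccl26, Cxcl2, Cxcl3, Cxcl5, Cxcl11, Cxcl15, Xcl1, Ccr1, Ccr1l1, Ccr3 and Ccr8. Nr3c2, the gene of the receptor, read 6.14, 6.22 and 6.58 on aged MR-KO arrays and 7.12, 6.86, 6.80 and 7.24 on aged MR-intact arrays. On young MR-KO arrays it read 6.26, 6.09 and 6.42, and on young MR-intact arrays 6.68, 6.62 and 6.69. Knockout and intact arrays did not overlap at either age, although the limma fit over all features did not call the difference (log2 change -0.69, adjusted p = 0.0599 in aged aorta; -0.40, adjusted p = 1 in young aorta). The sources used here do not say whether its probes lie inside the deleted exons, and a probe outside them would not read the deletion directly. Markers of smooth muscle averaged 10.57, 9.93 and 10.47 on aged MR-KO arrays 1, 2 and 3, and 10.48 to 10.87 on the other arrays. They were high on every array and lowest on aged MR-KO array 2.

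The mean of B lymphocyte and plasma cell markers was higher on every aged MR-KO array than on any other array. The mean of T lymphocyte markers was so on aged MR-KO arrays 1 and 2 only, and array 3 lay within the aged MR-intact range. Single markers of either list did not all follow. A list of 10 B lymphocyte and plasma cell markers averaged 8.64, 7.13 and 7.11 on aged MR-KO arrays 1, 2 and 3, against 5.72 to 6.07 on aged MR-intact arrays. Young MR-KO array 3 read 6.79, against 5.44 to 5.97 on young MR-intact arrays. The 9 measured T lymphocyte markers averaged 6.90, 6.36 and 5.71 on aged MR-KO arrays and 5.35 to 5.82 on aged MR-intact arrays. Liver markers averaged 6.49 on aged MR-KO array 2 and 4.29 to 5.25 on all other arrays. Skeletal muscle markers averaged 7.96, 7.47 and 5.33 on young MR-intact arrays and 5.01 to 5.82 on aged MR-intact arrays. They averaged 5.70, 5.68 and 7.55 on young MR-KO arrays and 5.02 to 6.14 on aged MR-KO arrays. With age in MR-intact aorta all 8 were lower by unadjusted p, beside 4.14% of features, and none was called. The part of such tissue in the member differences was not tested. The median SD over the 50 members was 0.22 in aged MR-KO, 0.15 in aged MR-intact, 0.14 in young MR-KO and 0.10 in young MR-intact aorta. The fit uses 1 spread per gene for all groups, so errors given for aged MR-KO aorta lean on less variable groups.

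With age, MR-intact aorta gained Ccl8. This CC ligand, made largely by tissue macrophages, was the 1 member called in that comparison, at an adjusted p under 0.05 over all features, where 0.236% of features were called. Ccl8 read 6.85, 6.20, 7.0 and 5.93 on aged MR-intact arrays and 4.74, 5.09 and 4.78 on young MR-intact arrays. The groups did not overlap, and 2 of the aged arrays lay well above the other 2. The log2 change was 1.63 (95% confidence interval 1.15 to 2.11), a 3.09-fold higher level, with limma adjusted p = 0.00753. The call was lost without young MR-intact array 1, the array highest in skeletal muscle markers (log2 change 1.56, adjusted p = 0.0549). Without young MR-intact array 2, also high in those markers, it was kept (1.74, adjusted p = 0.0425). It was lost when only the 2 groups of the comparison were fitted (1.63, adjusted p = 0.0542).

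Ccl11 and Ccl7, which lie near Ccl8 in a cluster of CC ligands, were next in rank and did not pass. Ccl11, the eosinophil attractant eotaxin, read 9.20, 9.17, 9.12 and 8.97 on aged MR-intact arrays and 8.63, 8.74 and 8.55 on young MR-intact arrays (log2 change 0.47, adjusted p = 0.116). Ccl7, a monocyte attractant, read 7.06, 7.05, 6.99 and 6.42 on aged MR-intact arrays, against 6.40, 6.00 and 6.31 on young MR-intact arrays (log2 change 0.64, adjusted p = 0.178). Both genes had every aged MR-intact array above every young one, Ccl7 narrowly. Ccl2, the main ligand of Ccr2 on monocytes, read 6.48, 6.70, 6.65 and 5.94 on aged MR-intact arrays and 6.01, 5.94 and 6.02 on young MR-intact arrays, so that 1 aged array lay among the young ones (0.45, adjusted p = 0.526). Without aged MR-intact array 4, the lowest of its group for Ccl8, Ccl7, Ccl2 and Ccl11, Ccl7 was called as well (log2 change 0.80, adjusted p = 0.0283).

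Cx3cl1, the membrane-bound ligand fractalkine of endothelium and smooth muscle, read 7.44, 7.18, 7.07 and 7.20 on aged MR-intact arrays and 7.01, 6.83 and 6.50 on young MR-intact arrays (log2 change 0.44, adjusted p = 0.281). Cxcl1, a neutrophil attractant, read 5.51, 5.60, 5.49 and 5.29 on aged MR-intact arrays and 4.94, 5.31 and 5.28 on young MR-intact arrays (0.30, adjusted p = 0.431). Fractalkine did not overlap between the groups, whereas Cxcl1 did. Of the 50 members, 7 had an unadjusted p under 0.05, all ligands and all higher in aged aorta, against 4.49% of features higher and 4.14% lower. The arrays of 6 members did not overlap, each higher in aged MR-intact aorta, beside 6.05% of features higher and 4.8% lower. Ccl27a, a ligand of Ccr10 best known from skin, had similar differences with age in both genotypes, 0.57 in MR-KO (adjusted p = 0.227) and 0.47 in MR-intact aorta (adjusted p = 0.534). The median log2 change was 0.11 over the 32 ligands and 0.03 over the 18 receptors, against 0.01 over all features.

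The start regions of Ccl8 and its neighbour Ccl12 are shown because these paralogs, adjacent in the annotated gene order, had different measured changes with age. Ccl12 read 4.49, 3.94, 4.29 and 3.79 on aged MR-intact arrays and 4.27, 4.13 and 4.16 on young MR-intact arrays, and the groups overlapped. Each run is the 250 bases before the annotated start, 5′ to 3′ on the gene's strand, from RefSeq in build GRCm38.p6. Capitals mark matches, on either strand, to TATAAA (which can place the start of transcription), TGTTCT (the core of a steroid receptor site), GGNNTTTCC (an NF-kB core) or GAAANNGAA (an interferon response core). Ccl8 lies at chr11:82114935-82115184 and Ccl12 at chr11:82101595-82101844.
Ccl8: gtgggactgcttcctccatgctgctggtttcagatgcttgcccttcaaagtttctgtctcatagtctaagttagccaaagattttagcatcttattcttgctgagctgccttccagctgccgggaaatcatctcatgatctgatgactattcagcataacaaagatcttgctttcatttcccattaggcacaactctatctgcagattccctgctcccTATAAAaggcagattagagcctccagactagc
Ccl12: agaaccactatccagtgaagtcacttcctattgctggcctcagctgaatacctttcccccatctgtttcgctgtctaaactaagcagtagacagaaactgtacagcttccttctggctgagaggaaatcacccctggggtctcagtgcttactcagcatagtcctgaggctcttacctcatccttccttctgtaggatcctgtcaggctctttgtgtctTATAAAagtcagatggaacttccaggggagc
Both carry TATAAA near the start, at position -32 in Ccl8 and -31 in Ccl12, and neither window held a match to the other 3 motifs. Of the members, 37 had such an entry, in 41 entries in all. TATAAA was in 29.3% of the 41 and in 12.4% of all 32851 promoters of this length. TGTTCT was in 17.1% against 16.1%, GGNNTTTCC in 19.5% against 4.93%, and GAAANNGAA in 17.1% against 7.13%. These matches describe letters only.

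**Figure D1:**
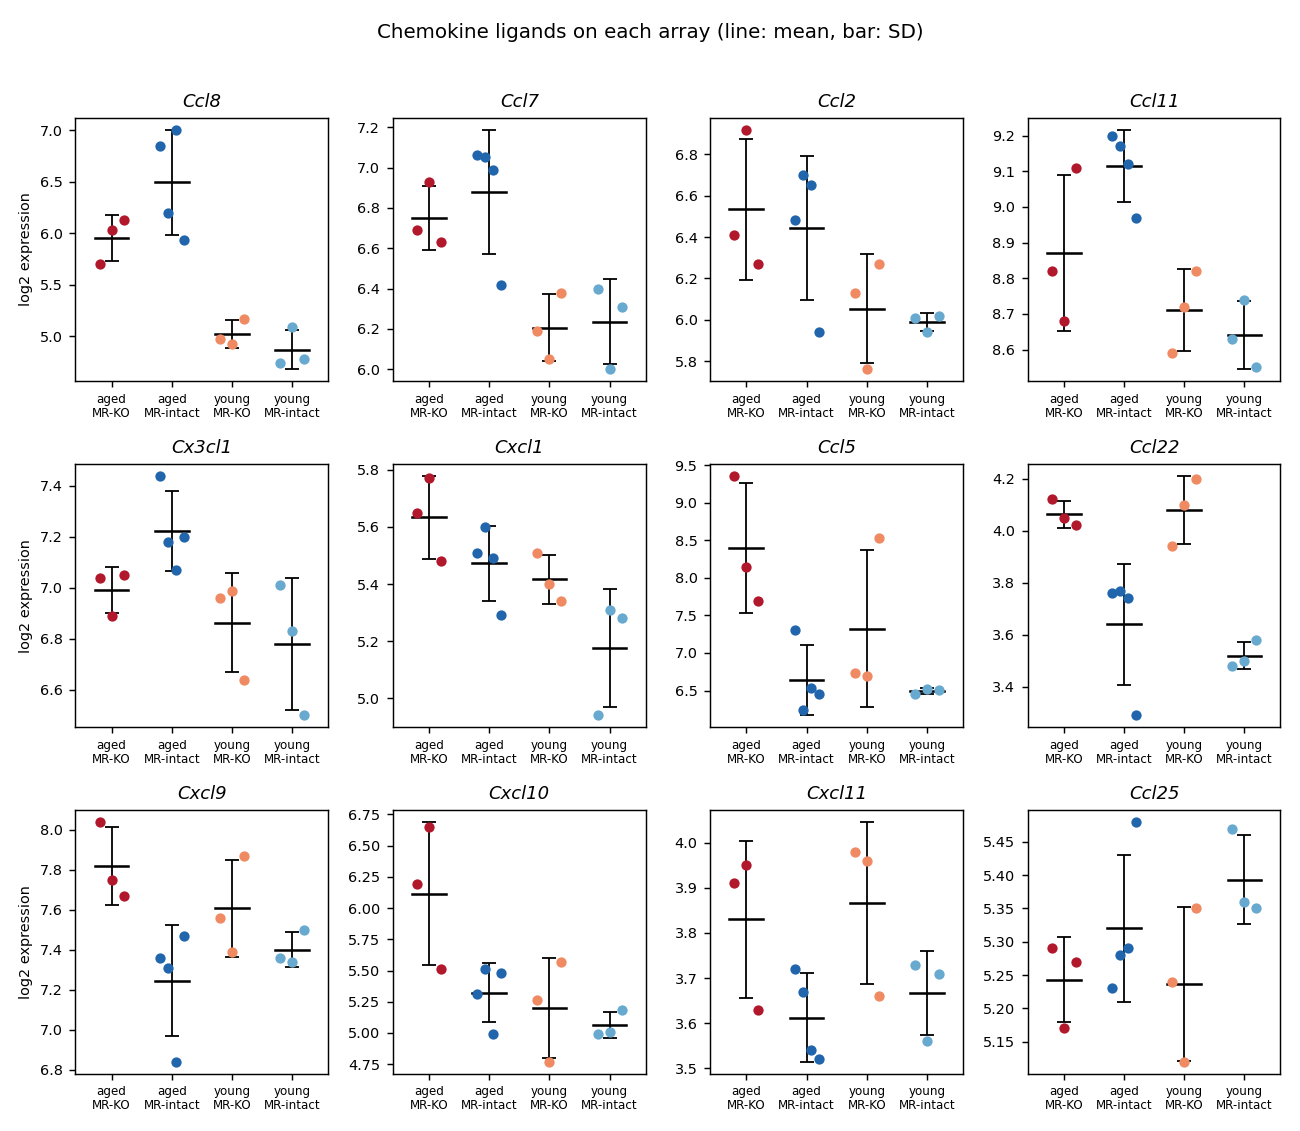
Deposited log2 expression of 12 chemokine ligands on each of the 13 arrays, by group, with group mean and SD. Ccl8 read 5.93 to 7.0 on aged MR-intact arrays and 4.74 to 5.09 on young MR-intact arrays, and Ccl5 was highest on aged MR-KO array 1 at 9.36.

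With age in MR-KO aorta, no member passed, beside 0.735% of features called. Cxcr4, the receptor of Cxcl12 on lymphocytes and progenitor cells, came closest at adjusted p = 0.0518. It read 7.49, 6.64 and 6.19 on aged MR-KO arrays and 5.64, 5.52 and 5.82 on young MR-KO arrays. The groups did not overlap, the spread among the aged arrays was wider than the gap between the groups, and the log2 change was 1.11 (95% confidence interval 0.61 to 1.62). Cxcr4 was called under 5 of the other settings and without aged MR-KO array 1 (log2 change 0.75, adjusted p = 0.0225) or array 3 (1.41, adjusted p = 0.00604). Without both arrays 1 and 2, which left 1 aged MR-KO array assumed to vary like the others, it was not called in any comparison.

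Cxcr2, the receptor through which neutrophils follow Cxcl1 and Cxcl2, read 4.63, 4.43 and 3.83 on aged MR-KO arrays and 3.45, 3.59 and 3.73 on young MR-KO arrays (log2 change 0.71, adjusted p = 0.092). Ccl8 read 5.70, 6.03 and 6.13 on aged MR-KO arrays and 4.97, 4.92 and 5.17 on young MR-KO arrays (0.94, adjusted p = 0.0944). Neither gene overlapped between these groups. Cxcl10, the interferon-induced ligand of Cxcr3, read 6.19, 6.65 and 5.51 on aged MR-KO arrays and 5.26, 4.77 and 5.57 on young MR-KO arrays (0.92, adjusted p = 0.118). Aged MR-KO array 3 lay among the young ones.

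Cxcr3, the receptor of Cxcl9 and Cxcl10 on activated T cells, read 6.11, 5.75 and 5.31 on aged MR-KO arrays and 5.17, 5.10 and 5.06 on young MR-KO arrays (log2 change 0.61, adjusted p = 0.122). Cxcr6, a T cell receptor for Cxcl16, read 4.93, 5.63 and 4.28 on aged MR-KO arrays and 4.18, 3.97 and 4.29 on young MR-KO arrays (0.80, adjusted p = 0.14). Of these, only Cxcr6 overlapped, through aged MR-KO array 3. Cxcl14, a ligand of skin and other epithelia, had the largest change of any member in this comparison and the widest error (1.75, 95% confidence interval 0.30 to 3.20, adjusted p = 0.223). It read 6.68, 9.27 and 8.65 on aged MR-KO arrays and 6.49, 6.57 and 6.28 on young MR-KO arrays, but also 8.34 on 1 aged MR-intact and 8.27 on 1 young MR-intact array.

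The CC ligands near Ccl8 were not called with age in the knockout either. Ccl7 read 6.69, 6.93 and 6.63 on aged MR-KO arrays and 6.19, 6.05 and 6.38 on young MR-KO arrays (log2 change 0.54, adjusted p = 0.145). Ccl2 read 6.41, 6.92 and 6.27 on aged MR-KO arrays and 6.13, 5.76 and 6.27 on young MR-KO arrays (0.48, adjusted p = 0.274). Ccl11 read 8.82, 8.68 and 9.11 on aged MR-KO arrays and 8.59, 8.72 and 8.82 on young MR-KO arrays (0.16, adjusted p = 0.537). Ccl7 separated the ages in the knockout, Ccl2 met at 6.27 after rounding, and Ccl11 overlapped. Cx3cl1 read 7.04, 6.89 and 7.05 on aged MR-KO arrays and 6.96, 6.99 and 6.64 on young MR-KO arrays (0.13), and Cxcl1 5.65, 5.77 and 5.48 on aged and 5.51, 5.40 and 5.34 on young MR-KO arrays (0.22), both with overlap. Ccl3, a ligand of Ccr1, read 6.26, 6.29 and 5.08 on aged MR-KO arrays and 5.14, 5.22 and 5.33 on young MR-KO arrays (0.65, adjusted p = 0.309), with array 3 below every young array.

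Unadjusted p-values under 0.05 were found for 14 members, all higher in aged MR-KO aorta (8 ligands and 6 receptors), beside 9.07% of features higher and 6.76% lower. The arrays of 10 members did not overlap, each higher in aged MR-KO aorta, beside 8% of features higher and 8.38% lower. The median log2 change was 0.15 over the 50 members and 0.00 over all features. Leaving out aged MR-KO array 3, whose T lymphocyte markers were the lowest of its group, raised the members called to 8: Ccl3, Cxcl10, Cxcl12, Cxcr2, Cxcr3, Cxcr4, Cxcr6 and Xcr1, each higher in aged MR-KO aorta. Calls over all features rose as well, from 156 to 885. Without arrays 1 and 2 together the median was 0.02, with 26 of 50 members above 0. The part of lymphocyte number in these differences was not tested.

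**Figure D2:**
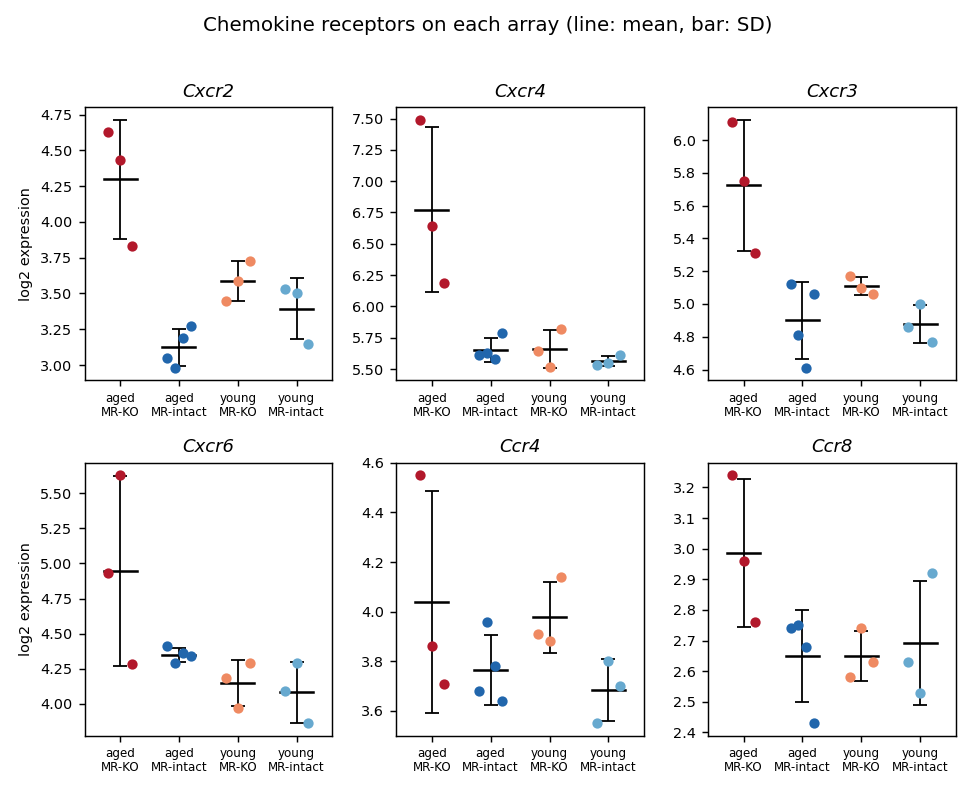
Deposited log2 expression of 6 chemokine receptors on each array, by group, with group mean and SD. Cxcr2 read 3.83 to 4.63 on aged MR-KO arrays and 2.98 to 3.27 on aged MR-intact arrays, and for Cxcr3, Cxcr4, Ccr4 and Ccr8 the highest aged MR-KO array was array 1.

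In aged aorta, the knockout had more Cxcr2. It was the 1 member called in this comparison, beside 0.0565% of features called. Cxcr2 read 4.63, 4.43 and 3.83 on aged MR-KO arrays and 3.05, 2.98, 3.19 and 3.27 on aged MR-intact arrays, with no overlap. The log2 change was 1.17 (95% confidence interval 0.82 to 1.53), with limma adjusted p = 0.0244. Its group means outside aged MR-KO lay below 3.89, among the dimmest features. The call was lost with array weights (adjusted p = 0.0535), with only the groups of the comparison fitted (0.239), and without aged MR-KO array 2 (0.0626), aged MR-intact array 1 (0.0964), aged MR-intact array 3 (0.101) or young MR-intact array 2 (0.0528). Without aged MR-KO arrays 1 and 2 its log2 change was 0.71 (adjusted p = 0.301). Neutrophil markers averaged 4.17 to 4.55 on aged MR-KO arrays and 4.16 to 4.33 on aged MR-intact arrays, and the defining genes Ly6g and Ngp had group means below 3.89 in both. Of the 8 neutrophil markers, 2 were higher and 0 lower by unadjusted p, beside 8.58% of features higher and 9.06% lower. These were S100a9, which read 4.86, 6.12 and 4.95 on aged MR-KO arrays and 4.49 to 4.92 on aged MR-intact arrays, and Csf3r, which read 5.11, 5.75 and 5.30 on aged MR-KO arrays and 5.0 to 5.15 on aged MR-intact arrays. Both were highest on aged MR-KO array 2, whereas Cxcr2 was highest on array 1. The part of neutrophil number was not tested.

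Cxcr4 and Cxcr3, both receptors of lymphocytes, followed in rank without passing. Cxcr4 read 7.49, 6.64 and 6.19 on aged MR-KO arrays and 5.61, 5.63, 5.58 and 5.79 on aged MR-intact arrays (log2 change 1.12, 95% confidence interval 0.65 to 1.59, adjusted p = 0.0605). Cxcr3 read 6.11, 5.75 and 5.31 on aged MR-KO arrays and 5.12, 4.81, 4.61 and 5.06 on aged MR-intact arrays (0.82, 95% confidence interval 0.47 to 1.18, adjusted p = 0.0642). Both were called when each array was centred on its median (adjusted p = 0.0434 for Cxcr4 and 0.0465 for Cxcr3). Further down in rank, Ccr6, the receptor of Ccl20 on B cells and some T cells, read 5.54, 4.67 and 4.16 on aged MR-KO arrays and 3.69, 3.87, 3.85 and 3.69 on aged MR-intact arrays (1.01, adjusted p = 0.103). Its aged MR-intact mean of 3.78 lay below 3.89. Cxcr6 read 4.93, 5.63 and 4.28 on aged MR-KO arrays and 4.41, 4.29, 4.36 and 4.34 on aged MR-intact arrays (0.60, adjusted p = 0.199). Xcr1, the receptor of cross-presenting dendritic cells, read 5.22, 5.21 and 4.19 on aged MR-KO arrays and 4.08, 4.19, 4.15 and 4.18 on aged MR-intact arrays (0.72, adjusted p = 0.0984). Aged MR-KO array 3 lay just below every aged MR-intact array for Cxcr6 and level with the highest of them for Xcr1. Of 8 dendritic cell markers, 4 were higher and 0 lower by unadjusted p in the same comparison, beside 8.58% of features higher and 9.06% lower. The list averaged 5.65, 5.52 and 5.24 on aged MR-KO arrays and 5.19 to 5.22 on aged MR-intact arrays. Clec9a, a marker of cross-presenting dendritic cells, read 5.21, 4.80 and 3.90 on aged MR-KO arrays and 3.72 to 3.92 on aged MR-intact arrays. Like Xcr1, it was high on aged MR-KO arrays 1 and 2 and within the aged MR-intact range on array 3. The part of dendritic cells in these differences was not tested.

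Among ligands, Ccl5 had the largest difference. This product of T cells and natural killer cells, also called RANTES, read 9.36, 8.15 and 7.69 on aged MR-KO arrays and 7.31, 6.24, 6.53 and 6.46 on aged MR-intact arrays (log2 change 1.76, 95% confidence interval 0.78 to 2.75, adjusted p = 0.0879). Ccl22, a ligand of Ccr4 made by dendritic cells and macrophages, read 4.12, 4.05 and 4.02 on aged MR-KO arrays and 3.76, 3.77, 3.74 and 3.29 on aged MR-intact arrays (0.42, adjusted p = 0.0918). Cxcl9, an interferon gamma target, read 8.04, 7.75 and 7.67 on aged MR-KO arrays and 7.36, 7.31, 6.84 and 7.47 on aged MR-intact arrays (0.57, adjusted p = 0.0943). Cxcl10 read 6.19, 6.65 and 5.51 on aged MR-KO arrays and 5.31, 5.51, 4.99 and 5.48 on aged MR-intact arrays, and met at 5.51 (0.79, adjusted p = 0.123). Ccl5, Ccl22 and Cxcl9 did not overlap between the groups, and the aged MR-KO arrays were closest together in Ccl22. The aged MR-intact mean of Ccl22, 3.64, lay below 3.89.

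All 12 CXC ligands had a log2 change above 0, with a median of 0.20 and a range of 0.03 to 0.94, beside 56.4% of all features above 0. Among them Cxcl2, Cxcl3, Cxcl5, Cxcl11 and Cxcl15 belong to the low set, below 3.89 in every group. Of the 18 CC ligands, 9 lay above 0, with a median of 0.01, and the classes were not tested against each other. Ccl8 and Ccl11 were the lower members by unadjusted p. Ccl8 had a mean of 5.96 ± 0.23 (SD, n = 3) in aged MR-KO and 6.50 ± 0.51 (SD, n = 4) in aged MR-intact aorta (log2 change -0.54, limma adjusted p = 0.23). Ccl11 averaged 8.87 ± 0.22 (SD, n = 3) in aged MR-KO and 9.11 ± 0.10 (SD, n = 4) in aged MR-intact aorta (-0.24, limma adjusted p = 0.24), and both overlapped. By unadjusted p, 12 members were higher in the knockout and 2 lower, beside 8.58% of features higher and 9.06% lower. Arrays did not overlap for 8 members higher and for 1 lower, Cx3cl1, beside 5.25% of features higher and 5.11% lower. The median over the 18 receptors was 0.25, and over all features 0.02.

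Leaving out 1 array moved these calls most of all. Without aged MR-KO array 3, 13 members were called, 12 higher and Ccl11 lower (-0.37, adjusted p = 0.0392), among 1442 features in place of 12. The members higher included Xcr1 (1.06, adjusted p = 0.00065), and Cx3cr1, the fractalkine receptor of monocytes (0.44, adjusted p = 0.0134). Without arrays 1 and 2 of that group no member was called, 25 of 50 lay above 0 and the median was 0.00. Aged MR-KO arrays held the highest of the 13 values for 26 of 50 members and 13 of 18 receptors, beside 38.2% of all features. Young MR-intact arrays held it for 2 members, beside 14.8% of features.

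**Figure D3:**
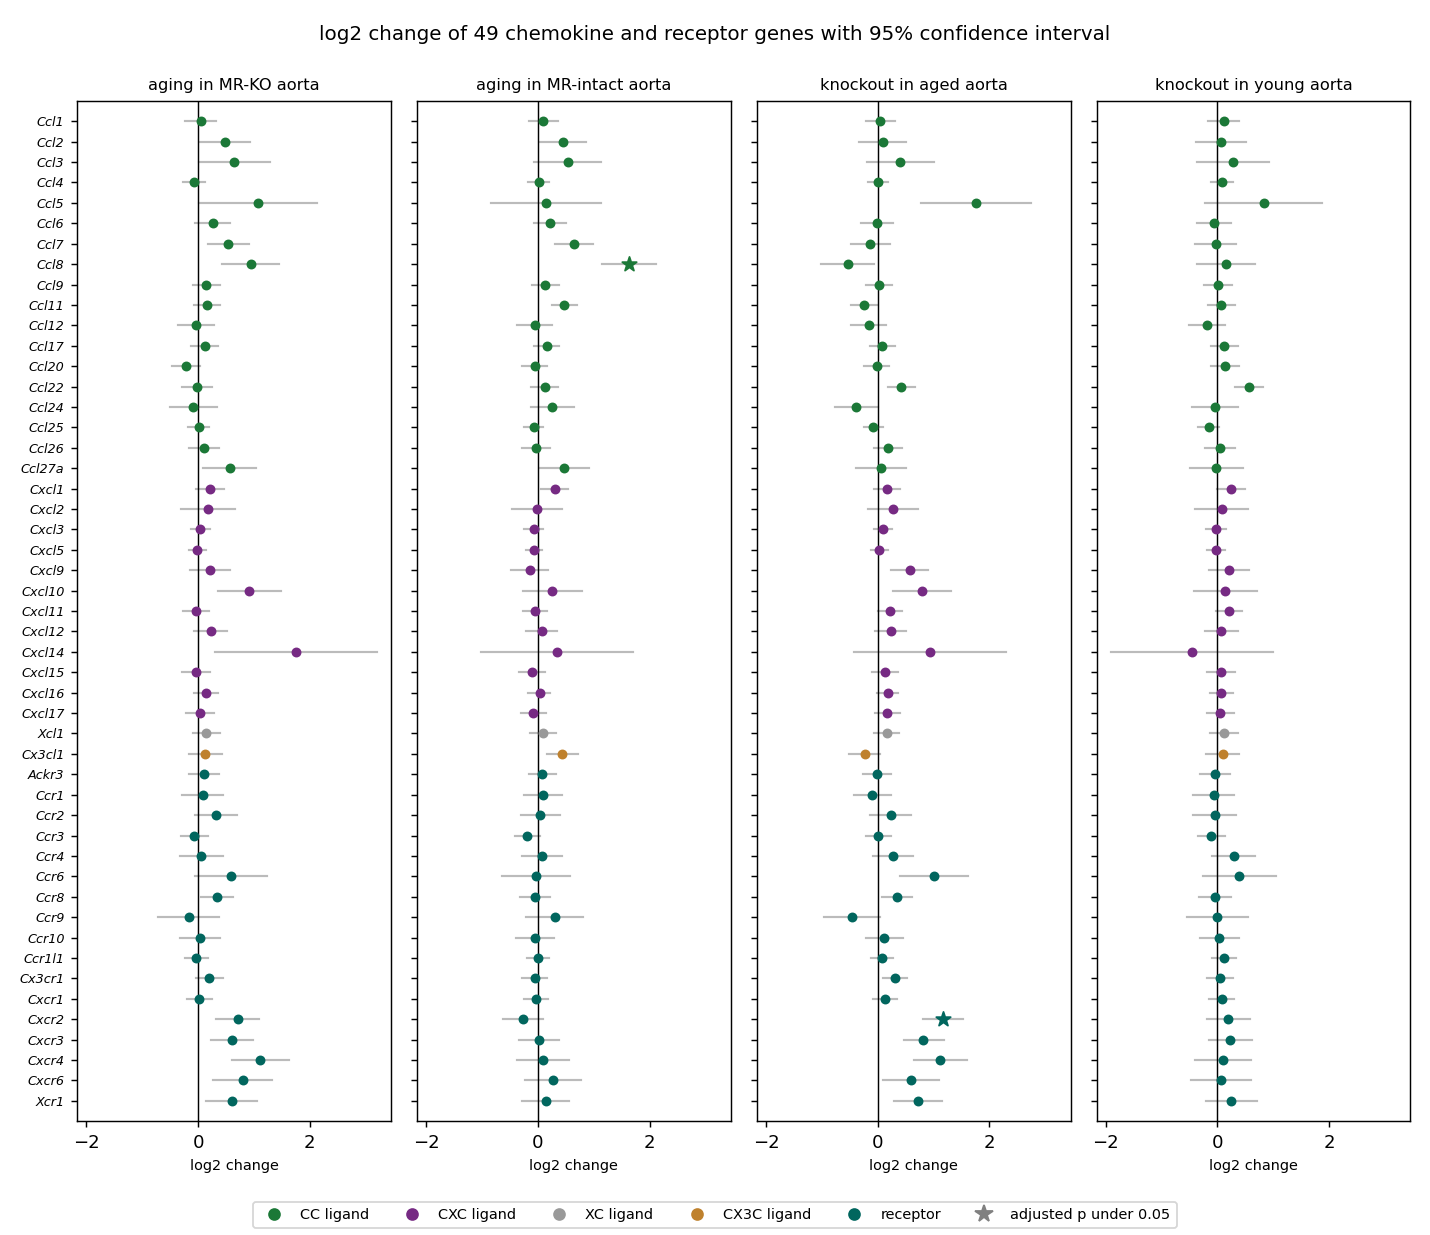
Log2 change of 49 of the 50 members with 95% confidence interval (grey) in 4 comparisons, with members in rows and each comparison in its own panel. Stars mark the members called at an adjusted p under 0.05 over all features, which are Ccl8 with age in MR-intact aorta and Cxcr2 between genotypes in aged aorta.

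Start regions of 4 further genes are shown as the interferon-induced pair of ligands and the receptors with the smallest p-values. Source, length, strand and capitals are as for Ccl8. Cxcl10 lies at chr5:92348890-92349139 and Cxcl9 at chr5:92328080-92328329, both on the minus strand. Cxcr2 lies at chr1:74153744-74153993 on the plus strand and Cxcr4 at chr1:128592300-128592549 on the minus strand.
Cxcl10: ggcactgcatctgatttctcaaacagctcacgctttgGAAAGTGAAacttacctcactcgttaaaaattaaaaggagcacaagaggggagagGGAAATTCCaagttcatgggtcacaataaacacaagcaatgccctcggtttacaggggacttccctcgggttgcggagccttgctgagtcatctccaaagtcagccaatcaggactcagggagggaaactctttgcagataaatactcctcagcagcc
Cxcl9: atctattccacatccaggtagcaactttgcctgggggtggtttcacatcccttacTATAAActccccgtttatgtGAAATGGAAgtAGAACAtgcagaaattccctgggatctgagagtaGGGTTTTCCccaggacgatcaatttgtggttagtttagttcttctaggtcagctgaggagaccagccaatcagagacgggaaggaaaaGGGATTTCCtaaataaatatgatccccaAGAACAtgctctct
Cxcr2: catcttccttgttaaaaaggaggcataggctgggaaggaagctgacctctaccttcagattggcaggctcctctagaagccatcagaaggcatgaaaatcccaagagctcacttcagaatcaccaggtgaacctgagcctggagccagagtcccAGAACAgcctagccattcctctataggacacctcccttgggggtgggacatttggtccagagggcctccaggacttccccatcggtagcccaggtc
Cxcr4: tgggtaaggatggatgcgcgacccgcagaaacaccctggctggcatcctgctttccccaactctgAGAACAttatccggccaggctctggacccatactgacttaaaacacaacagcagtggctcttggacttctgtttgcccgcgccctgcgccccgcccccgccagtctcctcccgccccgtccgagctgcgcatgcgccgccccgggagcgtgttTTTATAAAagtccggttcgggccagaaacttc
Cxcl10 held an interferon core at -213 and an NF-kB core at -158, with no steroid receptor core. Cxcl9 held NF-kB cores at -130 and -42, an interferon core at -175, TATAAA at -195, and steroid receptor cores, written AGAACA on this strand, at -164 and -14. Cxcr2 held 1 steroid receptor core at -96. Cxcr4 held 1 at -185. Its TATAAA was found on both strands, at -32 and -30, in matches that overlap.

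In young aorta no member differed between genotypes by the test, and no feature of the whole array was called (0%). Ccl22 had the smallest p, an unadjusted p = 0.000427 that became 1 after adjustment over all features. It read 3.94, 4.10 and 4.20 on young MR-KO arrays and 3.48, 3.50 and 3.58 on young MR-intact arrays, with no overlap. The log2 change was 0.56 (95% confidence interval 0.31 to 0.82). Values of Ccl22 were thus near 4 in both knockout groups and below in both intact groups. Its intact group means, 3.64 in aged and 3.52 in young aorta, lay below 3.89, the lowest of the array lower quartiles. The difference thus lies among dim values. Ccr4, its receptor on regulatory and helper T cells, read 3.91, 3.88 and 4.14 on young MR-KO arrays and 3.55, 3.80 and 3.70 on young MR-intact arrays (0.29). In aged aorta Ccr4 read 4.55, 3.86 and 3.71 on MR-KO arrays and 3.68, 3.96, 3.78 and 3.64 on MR-intact arrays, with overlap. Its means in both intact groups, 3.76 in aged and 3.68 in young aorta, lay below 3.89 as well.

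Ccl5 read 6.74, 6.70 and 8.53 on young MR-KO arrays and 6.45, 6.52 and 6.51 on young MR-intact arrays (log2 change 0.83, adjusted p = 1). Its high array was young MR-KO array 3, whose B lymphocyte markers also stood apart, and without that array the change was 0.23. Cxcl1 read 5.51, 5.40 and 5.34 on young MR-KO arrays and 4.94, 5.31 and 5.28 on young MR-intact arrays (0.24), close but without overlap. Cxcl11, a further Cxcr3 ligand with low values throughout, read 3.98, 3.96 and 3.66 on young MR-KO arrays and 3.73, 3.56 and 3.71 on young MR-intact arrays (0.20). Ccl25, the ligand of the gut-homing receptor Ccr9, read 5.24, 5.12 and 5.35 on young MR-KO arrays, against 5.47, 5.36 and 5.35 on young MR-intact arrays (-0.16). The receptors and interferon-induced ligands described for aged aorta had these values in young aorta. Cxcr2 read 3.45, 3.59 and 3.73 on young MR-KO arrays and 3.53, 3.50 and 3.15 on young MR-intact arrays (0.19). Cxcr4 read 5.64, 5.52 and 5.82 on young MR-KO arrays and 5.53, 5.55 and 5.61 on young MR-intact arrays (0.09). Cxcr3 read 5.17, 5.10 and 5.06 on young MR-KO arrays and 4.86, 5.0 and 4.77 on young MR-intact arrays (0.23). Only Cxcr3 of these receptors did not overlap. Cxcl9 read 7.56, 7.39 and 7.87 on young MR-KO arrays and 7.36, 7.34 and 7.50 on young MR-intact arrays (0.21), and Cxcl10 5.26, 4.77 and 5.57 on young MR-KO arrays and 4.99, 5.01 and 5.18 on young MR-intact arrays (0.14). Both ligands overlapped, each with its highest value on young MR-KO array 3. By unadjusted p, 1 member was higher and 0 were lower, beside 1.76% of features higher and 0.829% lower. Arrays did not overlap for 8 members higher and 1 lower in the knockout, beside 5.43% of features higher and 4.06% lower.

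Averaged over both ages, no member was called and no feature (0%). Ccl22 came first among the members (log2 change 0.49, 95% confidence interval 0.32 to 0.67, adjusted p = 0.126), with every MR-KO array of both ages above every MR-intact array. Next were Cxcr2 (0.68, adjusted p = 0.19), Cxcr3 (0.53, adjusted p = 0.325), Ccl5 (1.30, adjusted p = 0.331), Cxcr4 (0.61, adjusted p = 0.331) and Cxcl9 (0.39, adjusted p = 0.331). Unadjusted, 13 members were higher and 0 lower in the knockout, beside 6.79% of features higher and 4.11% lower. Without aged MR-KO array 3, 6 members were called, among 292 features in place of 0: Ccl22, Ccr6, Cxcr2, Cxcr3, Cxcr4 and Xcr1.

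Whether aging differed between genotypes was tested directly, as the log2 change with age in MR-KO minus that in MR-intact aorta. No member and no feature (0%) was called. The smallest unadjusted p-values among members were those of Cxcr2 at 0.98 (95% confidence interval 0.45 to 1.50) and Cxcr4 at 1.03 (0.33 to 1.72), followed by Cxcr3 at 0.59, all with adjusted p = 0.609. Cxcl14 had a larger difference with a wider error (1.4, 95% confidence interval -0.58 to 3.39, adjusted p = 0.686). Ccl8 had -0.69 (-1.40 to 0.01) and Ccl11 -0.31 (-0.64 to 0.02), also with adjusted p = 0.609, so a smaller change with age of these ligands in the knockout was not shown. Ccr8, in mouse a receptor of Ccl1 and Ccl8, had 0.38. It read 3.24, 2.96 and 2.76 on aged MR-KO arrays, 2.74, 2.75, 2.68 and 2.43 on aged MR-intact arrays, 2.58, 2.74 and 2.63 on young MR-KO arrays and 2.63, 2.53 and 2.92 on young MR-intact arrays, all below 3.89. Unadjusted, 3 members were higher and 0 lower, beside 3.59% of features higher and 4.53% lower. Without aged MR-KO array 3, Cxcr2 (1.21, adjusted p = 0.039) and Xcr1 (0.81, adjusted p = 0.0489) were called, among 16 features in place of 0.

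Ligands and their receptors were set side by side as pairs. The 2 aging comparisons share no array, whereas each shares a group with the knockout comparison at each age. Differences with age in MR-KO aorta and between genotypes in aged aorta thus rest on the same aged MR-KO arrays. For Cxcr4, whose own difference in aged aorta was 1.12, the ligand Cxcl12 had 0.24 (adjusted p = 0.361) and the scavenging receptor Ackr3 of that ligand -0.02. Cxcl12 read 7.99, 8.31 and 7.60 on aged MR-KO arrays and 7.68 to 7.82 on aged MR-intact arrays, highest where liver markers were highest. The Cxcr2 ligands Cxcl1, Cxcl2, Cxcl3 and Cxcl5 differed by 0.16, 0.27, 0.09 and 0.03 in the same comparison, and none had an unadjusted p under 0.05. Of these, Cxcl2, Cxcl3 and Cxcl5 belong to the low set, where a difference could be missed. Cxcr1, the related neutrophil receptor and a neighbour of Cxcr2, had 0.13.

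For the Ccr2 ligands with age, the receptor itself had 0.04 in MR-intact aorta and 0.32 in MR-KO aorta, and Ccr8 -0.05 and 0.34. Cx3cr1 had -0.06 with age in MR-intact aorta, where its ligand Cx3cl1 had 0.44. Cxcr6 and Xcr1 had 0.60 and 0.72 between genotypes in aged aorta, and their ligands Cxcl16 and Xcl1 0.18 and 0.16. Ccr6 had 1.01 there and its ligand Ccl20 -0.02. Of the Ccl5 receptors, Ccr1 and Ccr3 had -0.10 and 0.01 where Ccl5 had 1.76. The ligand Ccl25 had -0.08 and its receptor Ccr9 -0.46. Among these partners Xcl1, Ccr1, Ccr3 and Ccr8 belong to the low set. The aged means of Ccl20, 3.78 in MR-KO and 3.80 in MR-intact aorta, lay below 3.89 as well. Small differences among such dim values do not show that a gene stayed level.

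**Figure D4:**
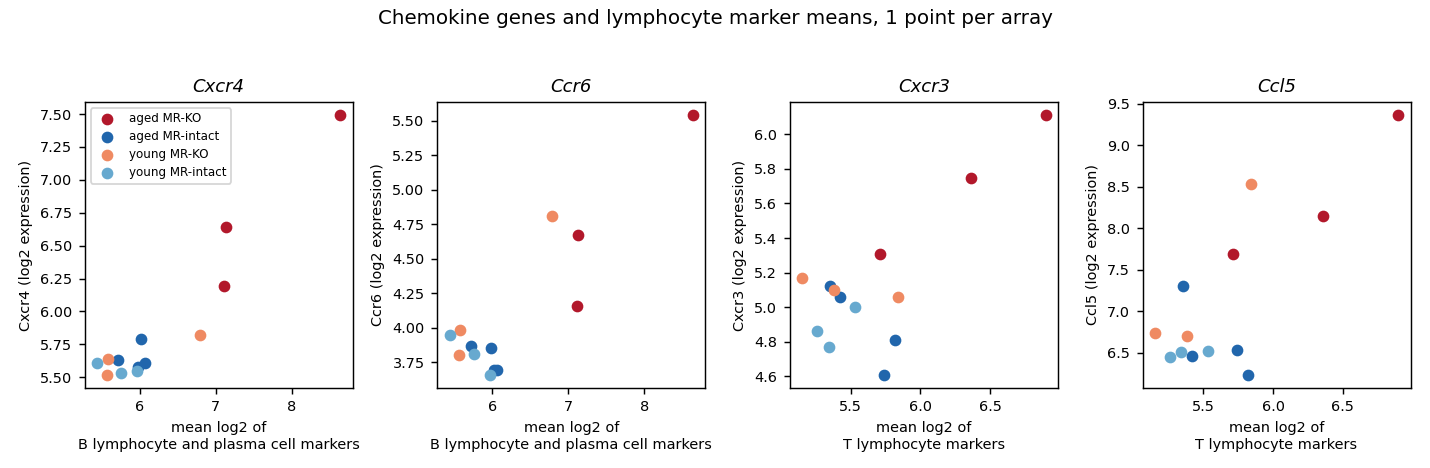
Log2 expression of Cxcr4, Ccr6, Cxcr3 and Ccl5 on each of the 13 arrays against the mean log2 value of lymphocyte markers on that array, coloured by group. Aged MR-KO array 1 is highest on both axes in each panel, and young MR-KO array 3, at 6.79 on the B lymphocyte axis, stands apart from the other young arrays.

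Many members sit beside paralogs, and the measured changes of neighbours did not share 1 pattern. In the run Ccl2, Ccl7, Ccl11, Ccl12, Ccl8 and Ccl1, the log2 changes with age in MR-intact aorta were 0.45, 0.64, 0.47, -0.06, 1.63 and 0.10 in that order. In MR-KO aorta they were 0.48, 0.54, 0.16, -0.04, 0.94 and 0.05. In the run that starts with Cxcr6, the first receptors in order, Cxcr6 and Xcr1, had 0.80 and 0.61 with age in MR-KO aorta, and Ccr1, Ccr1l1, Ccr3 and Ccr2 lay between -0.07 and 0.32. In the run Ccl5, Ccl9, Ccl6, Ccl3 and Ccl4 the values in MR-KO aorta were 1.07, 0.15, 0.26, 0.65 and -0.07. Paralogs share sequence, and which stretches the probes cover was not analysed here. Ccl27a, which has near-identical copies in the mouse genome, is uncertain for that reason.

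**Figure D5:**
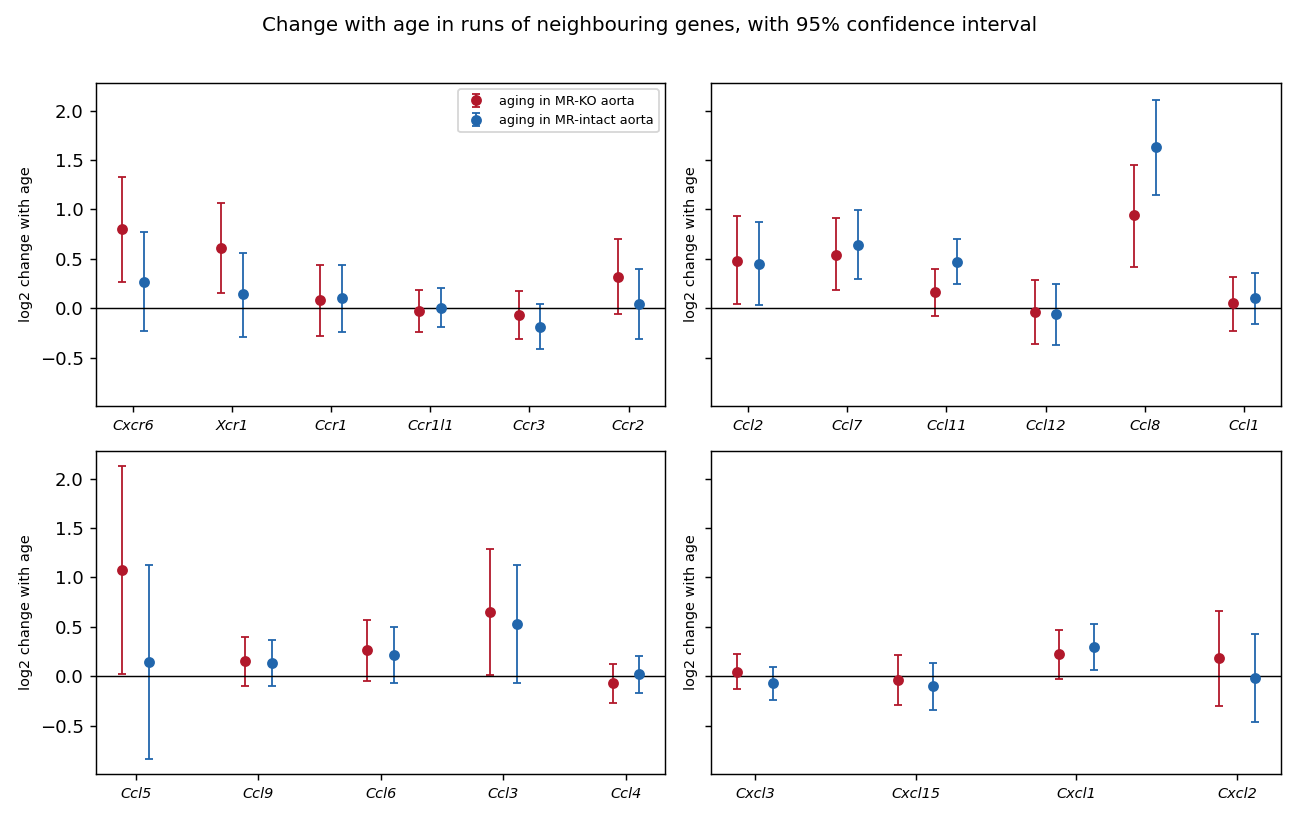
Log2 change with age, with 95% confidence interval, for genes of 4 runs of neighbouring chemokine genes in annotated order, in MR-KO and MR-intact aorta. Ccl8 had 0.94 in MR-KO and 1.63 in MR-intact aorta, while its neighbour Ccl12, a dim gene with group means of 3.96 to 4.19, had -0.04 and -0.06.

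The other genes of the pathway held few calls. Among 18 proteases and matrix binders that trim or hold chemokines, Mmp2, a gelatinase that cleaves Ccl7 and Cxcl12, fell with age in MR-KO aorta, with a mean of 9.13 ± 0.15 in aged and 9.72 ± 0.05 in young MR-KO aorta (SD, n = 3 each; log2 change -0.59, limma adjusted p = 0.00911). Ext1, an enzyme that builds heparan sulfate chains, fell as well, averaging 8.92 ± 0.30 in aged and 9.62 ± 0.13 in young MR-KO aorta (SD, n = 3 each; -0.70, limma adjusted p = 0.0445). In MR-intact aorta neither was called with age. Mmp2 read 9.40 to 9.49 on aged and 9.64 to 9.78 on young MR-intact arrays, lower with age without overlap. Ext1 read 9.16 to 9.49 on aged and 9.38 to 9.56 on young MR-intact arrays, with overlap. The other 16 were not called in any comparison. With age in MR-KO aorta, 0.735% of all features were called. No gene was called in any comparison among 30 signalling genes, 20 integrins and adhesion molecules, 22 upstream cytokines and transcription factors, 7 atypical receptors and the platelet chemokines Pf4 and Ppbp.

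By unadjusted p between genotypes in aged aorta, 15 of the 30 signalling genes were higher in the knockout and 1 lower, and 9 of the 20 adhesion genes higher and 3 lower, beside 8.58% of all features higher and 9.06% lower. Of the 3 measured genes set aside by the rule, Cxcl13 had a larger difference than any member. Cxcl13, the B cell attractant of follicles, read 9.98, 9.76 and 8.42 on aged MR-KO arrays and 6.73, 7.01, 5.94 and 6.21 on aged MR-intact arrays (2.92, adjusted p = 0.0578). Its receptor Cxcr5 had 1.60 (adjusted p = 0.0686), and Ccr7, which guides lymphocytes and dendritic cells to lymph nodes, 1.24 (adjusted p = 0.0839). These genes were not high in aged MR-KO aorta alone. On young MR-KO array 3, Cxcl13 read 8.30, Cxcr5 3.44 and Ccr7 6.90. The other young arrays read 5.77 to 6.49, 2.66 to 3.03 and 5.60 to 6.11 in that order.

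Marker lists moved beside the members as follows. Of 10 B lymphocyte and plasma cell markers, 1 rose with age in MR-KO aorta and 8 had an unadjusted p under 0.05, all higher, beside 9.07% of features. The gene called was Ighm, the mu heavy chain (log2 change 2.31, adjusted p = 0.0123), beside 0.735% of features called. Of 9 T lymphocyte markers, Cd3g rose (1.76, adjusted p = 0.0489) and 6 were higher by unadjusted p. Macrophage markers averaged 8.14 to 8.26 on aged MR-KO arrays, 8.11 to 8.34 on aged MR-intact, 7.90 to 8.14 on young MR-KO and 7.92 to 8.12 on young MR-intact arrays, and none of the 12 was called in any comparison. By unadjusted p, 3 of them were higher and 0 lower with age in each genotype, beside 9.07% of features higher in MR-KO and 4.49% in MR-intact aorta, and between genotypes in aged aorta 1 was higher and 3 lower. Cd68, a macrophage lysosome protein, was among those higher with age in both (log2 change 0.60, adjusted p = 0.0568 in MR-KO; 0.48, adjusted p = 0.19 in MR-intact aorta). Of 8 fibroblast markers, 4 fell with age in MR-KO aorta and 2 in MR-intact aorta, Col1a1 and Col1a2 in both. Of all features, 0.735% were called with age in MR-KO and 0.236% in MR-intact aorta. Of 8 smooth muscle markers, 7 were lower by unadjusted p between genotypes in aged aorta, beside 9.06% of features, and none was called. The list averaged 9.93 on aged MR-KO array 2, against 10.57 and 10.47 on arrays 1 and 3. Natural killer markers averaged 3.75 to 4.20 on aged MR-KO and 3.38 to 3.66 on aged MR-intact arrays, with group means of Ncr1, Gzma, Klrb1c and Klra8 below 3.89 throughout. Of the 8 natural killer markers, 5 were higher and 0 lower by unadjusted p between genotypes in aged aorta, beside 8.58% of features higher. Nkg7, a granule protein of natural killer and T cells, read 7.20, 6.55 and 5.65 on aged MR-KO arrays and 4.65 to 5.36 on aged MR-intact arrays (1.53, adjusted p = 0.0715). Prf1, Klrd1 and Eomes had 0.51, 0.76 and 0.72, with adjusted p = 0.0962, 0.123 and 0.074. What these cells contribute to the member differences was not tested.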

How the data were processed

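The deposited values are on the log2 scale, with a full-precision workbook and a second copy of 2 decimals. Both tables give each gene once per array and differed by at most 0.005. Per the submitters' processing notes they came from RMA (background correction, quantile normalization, probe summary), with affy and limma named. The sources used here do not give the array platform, genome build or tool versions.

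Here the 21225 deposited values were fitted unscaled and unfiltered with limma 3.58.1 in R 4.3.3 (lmFit, contrasts.fit, eBayes), with a coefficient for each of 4 groups (residual degrees of freedom 9, prior 3.41). The 6 contrasts were tested two-sided, with Benjamini-Hochberg adjustment over all features and calls at adjusted p under 0.05. The script was tested on simulated data. Array values are given for members called and for the 6 with the smallest p in each contrast; those of Ccl3, Ccl12, Ccr6, Cxcl12, Cxcl14 and Xcr1, and the changes of Ccl27a, were added after their values were seen. A few single genes are not reported here. The members, gene lists and tests were chosen with earlier results of these data known. All 50 members matched the RefSeq gene table (GRCm38.p6, used for names, gene order and start regions). Sample titles carry 1 letter for aged and another for young arrays, so whatever it marks cannot be told apart from age. Array precision is limited by the number of arrays.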

Additional observations from a re-analysis of the deposited data

Results flagged for a closer look

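Of the 18 members with values on every array, the aged MR-intact group, the 1 group of 4 arrays, was checked for a value far from the rest, and chance marks about 1 in 20 such groups. On aged MR-intact array 4, Ccl22 read 3.29 where the other 3 arrays read 3.74 to 3.77, and the gap was 0.94 of the group's range. Ccl7 read 6.42 on the same array, against 6.99 to 7.06 on the others, with a gap of 0.88 of the range.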

How the results depend on the processing

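No paired analysis was possible because the replicate numbers were given in accession order and only name an array. Other numbers in the sample titles lie close together across genotypes for most arrays, but the labels do not say what they mark, and no pairing was taken from them. Of 733 values of named members over 21 settings (13 of them leaving out 1 array), 696 kept direction and side of the threshold, 28 came to pass it, 9 ceased to pass it and 0 reversed. With age in MR-KO aorta the members called, 0 as reported, were 1 (Cxcr4) with array weights, after a second quantile normalization, with each array centred on its median, with the dimmest features left out and with an intensity trend and robust prior, and 0 to 8 on leaving out 1 array. With age in MR-intact aorta the 1 member called became 3 with array weights, 0 with only the groups of the comparison and 2 without both aged MR-KO arrays 1 and 2, and 0 to 2 on leaving out 1 array. Between genotypes in aged aorta the 1 member called became 3 after median centring, 0 with array weights, 0 with the dimmest features left out (which kept 14150 features and 27 members, not Cxcr2), 0 with only the groups of the comparison and 0 without both arrays, and 0 to 13 on leaving out 1 array. For the average over ages the range on leaving out 1 array was 0 to 6, and for the difference of aging 0 to 2; in young aorta it stayed 0. Over all features, the 156 called with age in MR-KO aorta were 271 after a second quantile normalization, 241 with the dimmest features left out, 1 with only the groups of the comparison, 51 without both arrays and 14 to 885 on leaving out 1. The 50 called in MR-intact aorta were 489 with array weights, 93 without both arrays and 14 to 104 on leaving out 1. The 12 called between genotypes in aged aorta were 5 with array weights or with the dimmest features left out, 24 after a second quantile normalization, 115 after median centring, 0 with only the groups of the comparison, 23 with the trend and 3 to 1442 on leaving out 1. For the average over ages the 0 called were 4 with array weights, 1 without both arrays and 0 to 292 on leaving out 1. For the difference of aging they were 1 with array weights, 1 without both arrays and 0 to 16 on leaving out 1. Apart from the smaller sets of features or arrays, the cause was not tested.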
